A study of Mus musculus with 6 samples.

Results

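Gzmk-positive CD8 T cells of the mouse liver were CD8 αβ T cells in which a transcript of the granule protease Gzmk was detected. They were chosen by 1 rule applied to single-cell RNA and T cell receptor (TCR) sequencing of the same cells. A barcode had to carry contigs of both TCR chains without the TRAV11-TRAJ18 or TRAV11D-TRAJ18 α chain of invariant natural killer T (iNKT) cells. It also had to hold at least 1 unique molecular identifier (UMI) of Cd8a or Cd8b1, at least 1 of Gzmk, and none of Cd4, Zbtb16, Zfp683 or Cd79a. Of 22661 cells that passed the cell filters, 757 met the rule. Of these, 154 of 6797 cells came from iNKT KO HFD+HDCA, 388 of 9668 from WT HFD+HDCA and 215 of 6196 from WT HFD. Because Gzmk and CD8 counts chose the cells, their levels in these cells are a description and not a finding.

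The libraries came from Ja18-/- mice, which lack the Jα18 segment of the iNKT receptor and are called iNKT KO, and from wild-type (WT) mice. The iNKT KO mice and 1 of the WT groups were fed for 12 weeks a 60% high-fat diet (HFD) that contained 0.25% hyodeoxycholic acid (HDCA), a bile acid. The other WT group was fed the 60% HFD without HDCA for the same time. All groups thus shared the high-fat diet, and no knockout mice on HFD alone and no mice on normal diet were analysed here. Mononuclear cells of the liver were sorted for CD45, 10000 cells a sample, although the treatment text names CD4 lymphocytes. A group was represented by a single RNA library with its TCR library, and how many mice stood behind it, and their age and sex, are not given in the sources used here. Differences between libraries therefore have no replicate check and no test, and the intervals given with them cover counting error only.

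Granzyme K is a protease of cytotoxic granules that in mice marks antigen-experienced CD8 T cells, many of them short of full cytotoxic differentiation. Such cells often carry Tox, a transcription factor of chronically stimulated T cells, and PD-1, the inhibitory receptor encoded by Pdcd1, and secrete the chemokine Ccl5. Daughter cells of 1 T cell carry the same TCR, so the nucleotide sequence of the complementarity-determining region 3 (CDR3) of both chains identifies a clone. Here a clonotype is the set of these sequences in a barcode, and its size is the number of αβ T cells of the library that carry it. A cell with a missed or an extra chain thus counts as another clonotype. Single cells, and cells left without the largest clonotype, may therefore include cells of a larger clone, which was not tested.

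The libraries held 46600746 UMIs for iNKT KO HFD+HDCA, 70776925 for WT HFD+HDCA and 44332213 for WT HFD. The Gzmk-positive cells had a median of 5974.5, 5934 and 6428 UMIs in the same order, below the 8383.5 to 8587.5 of CD8 T cells without a Gzmk UMI. Doublet calls removed 1, 8 and 1 cells that met the rule. The targeted segment checked the labels: Traj18 had 0 UMIs in the iNKT KO library, 160 in WT HFD+HDCA and 172 in WT HFD. Between 67 and 93 barcodes were shared by pairs of libraries, and none of them belonged to a Gzmk-positive cell or carried the same clonotype. Gzmk appeared in 0.337%, 0.136% and 0.354% of Cd79a-positive droplets without a TCR contig, at median depths of 4256, 4413 and 4524 UMIs, far below the shares of CD8 T cells with Gzmk given further on. The highest Gzmk count in a cell was 36 UMIs in iNKT KO HFD+HDCA, 26 in WT HFD+HDCA and 37 in WT HFD. Cells just inside the rule, with exactly 1 Gzmk UMI, made up 25.97%, 19.1% and 14.9% of the Gzmk-positive cells. Just outside it, 43, 62 and 39 further αβ T cells had Gzmk and a Cd4 UMI, and 30, 22 and 25 had Gzmk and no CD8 UMI.

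The label's other markers, which the rule did not use, are given as a description. They were chosen with earlier results of these data known, so they are no independent check. Ccl5 was detected in 99.4% of the Gzmk-positive cells in iNKT KO HFD+HDCA, 99.0% in WT HFD+HDCA and 98.6% in WT HFD. Tox was detected in 65.6%, 70.6% and 79.1% of them in the same order, and Pdcd1 in 46.8%, 36.3% and 60.5%. As counts per 1000000 UMIs (CPM), Pdcd1 stood at 183, 94.6 and 406 in the Gzmk-positive cells. In CD8 T cells with Ly6c2, Ccl5 and no Gzmk it stood at 3.63, 6.25 and 9.57 CPM in the same libraries. Tox stood at 378, 452 and 733 CPM in the Gzmk-positive cells. In the cells with Ly6c2, Ccl5 and no Gzmk it stood at 69.4, 99.6 and 96.8 CPM. Ly6c2, which helped to choose those cells, ran against Tox across clonotypes, as given further on. Of the genes of cytotoxicity, Gzma, a further granzyme, was detected in 27.3%, 22.4% and 37.2% of the Gzmk-positive cells. Gzmb, the granzyme that triggers cell death, was detected in 63.0%, 52.1% and 63.3%, and Prf1, the pore-forming perforin, in 55.2%, 65.2% and 69.3%. Tcf7, a transcription factor of naive and memory T cells, was still detected in 55.8%, 55.9% and 48.4%.

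The CDR3 sequences of the most abundant Gzmk-positive clonotype of each library are given first, because the share, the segment use and the gene levels below depend on them. Each is written 5′ to 3′ as read in the contigs. Capitals mark the junction bases that lie outside both the start shared by at least 50% of the other CDR3s with the same V segment and the end shared by at least 50% of those with the same J segment. The α chain is encoded on chromosome 14 and the β chain on chromosome 6.
iNKT KO HFD+HDCA, α chain, TRAV5N-4 and TRAJ5: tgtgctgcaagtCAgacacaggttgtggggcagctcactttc
iNKT KO HFD+HDCA, β chain, TRBV3 and TRBJ2-1: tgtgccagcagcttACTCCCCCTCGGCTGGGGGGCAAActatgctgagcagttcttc
WT HFD+HDCA, α chain, TRAV6D-6 and TRAJ30: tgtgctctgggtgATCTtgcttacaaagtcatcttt
WT HFD+HDCA, β chain, TRBV13-1 and TRBJ1-1: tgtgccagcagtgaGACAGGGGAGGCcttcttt
WT HFD, first α chain, TRAV7-5 and TRAJ26: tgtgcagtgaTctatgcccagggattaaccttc
WT HFD, second α chain, TRAV7D-2 and TRAJ21: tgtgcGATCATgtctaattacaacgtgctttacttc
WT HFD, β chain, TRBV13-3 and TRBJ1-4: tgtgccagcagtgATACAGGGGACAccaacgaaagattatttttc
The iNKT KO clonotype had 30 αβ T cells, of which 11 met the rule. The WT HFD+HDCA clonotype had 28 cells with 27 that met it, and the WT HFD clonotype, with both α chains in the same cells, had 76 cells with 69 that met it. The iNKT KO β chain held 24 junction bases outside the shared V and J ends, against 12 in the β chain of each WT clonotype.

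No clonotype of Gzmk-positive cells was found in more than 1 library, and none of their 376 α and 367 β CDR3 nucleotide sequences was shared between libraries. Translated, 2 of 373 α CDR3s, or 0.536%, and 0 of 365 β CDR3s occurred in more than 1 library. Among CD8 T cells without Gzmk, 64 of 2171 translated α CDR3s, or 2.95%, and 25 of 2215 β CDR3s, or 1.13%, did so. A percentage of this kind grows with the number of CDR3s compared. The sets were not matched in size, so no difference between them is read from these values. Both shared pairs joined different V segments to the same J segment and differed at 2 bases, shown in capitals.
iNKT KO HFD+HDCA, TRAV14N-1 and TRAJ7, 1 cell: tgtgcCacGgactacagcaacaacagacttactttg
WT HFD+HDCA, TRAV8D-2 and TRAJ7, 3 cells: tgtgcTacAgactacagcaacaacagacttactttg
iNKT KO HFD+HDCA, TRAV3-3 and TRAJ2, 1 cell: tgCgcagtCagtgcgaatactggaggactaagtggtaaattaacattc
WT HFD+HDCA, TRAV7N-4 and TRAJ2, 1 cell: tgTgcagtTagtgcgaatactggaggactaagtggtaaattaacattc

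Gzmk-positive cells took the smallest share of CD8 T cells in the iNKT KO library. They were 18.2% of CD8 T cells in iNKT KO HFD+HDCA (exact Clopper-Pearson 95% interval 15.7 to 21.0, 154 of 846 cells). The share was 29.5% in WT HFD+HDCA (27.0 to 32.0, 388 of 1316) and 27.0% in WT HFD (23.95 to 30.2, 215 of 796). With all these cells counted, the intervals of both WT libraries overlapped each other and lay above that of the iNKT KO library. Under HDCA the share in iNKT KO over that in WT mice was 0.617 (95% interval 0.509 to 0.746), and in WT mice the share with over that without HDCA was 1.09 (0.922 to 1.296). Both ratios use the WT HFD+HDCA library. Without the largest clonotype of each library the shares were 17.2%, 28.0% and 20.1%, which leaves the first ratio at 0.615 (0.503 to 0.748) and puts the second at 1.40 (1.15 to 1.70). As a share of all αβ T cells without the iNKT chain, the Gzmk-positive cells made up 8.49%, 14.9% and 11.7%.

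Among the other CD8 T cells, cells with Ly6c2 and Ccl5 and without Gzmk, which resemble memory cells, took nearly the same share of CD8 T cells in all libraries, 37.9% in iNKT KO HFD+HDCA, 37.5% in WT HFD+HDCA and 37.3% in WT HFD.

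**Figure D1:**
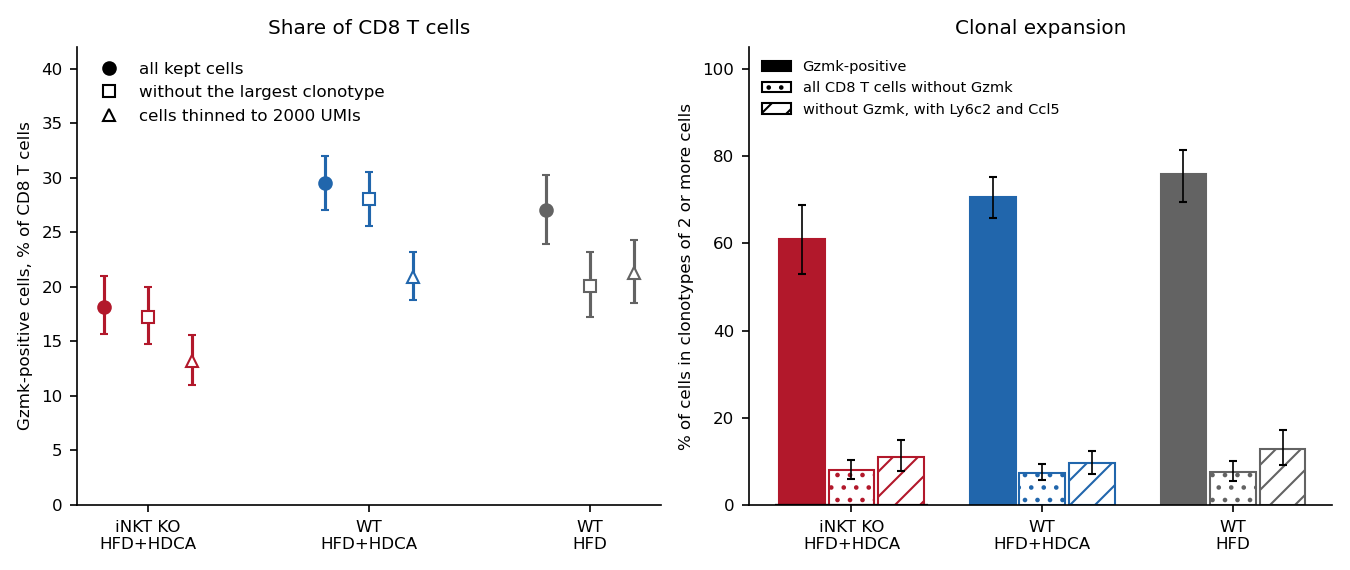
Share of CD8 T cells that were Gzmk-positive and share of cells in clonotypes of at least 2 cells, in percent, for iNKT KO HFD+HDCA, WT HFD+HDCA and WT HFD; error bars are exact 95% binomial intervals. Open squares leave out the largest clonotype, open triangles are cells thinned to 2000 UMIs, and dotted and striped columns are CD8 T cells without Gzmk, all of them and those with Ly6c2 and Ccl5. The iNKT KO share of 18.2% stands below 29.5% and 27.0% in the WT libraries, and 61.0% to 75.8% of the Gzmk-positive cells are in expanded clonotypes, against 7.44% to 7.95% of the CD8 T cells without Gzmk.

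Clonal expansion set the Gzmk-positive cells apart from the other CD8 T cells in every library. In iNKT KO HFD+HDCA 61.0% of them (exact 95% interval 52.9 to 68.8) belonged to clonotypes of 2 or more cells, in WT HFD+HDCA 70.6% (65.8 to 75.1) and in WT HFD 75.8% (69.5 to 81.4). CD8 T cells without Gzmk reached 7.95%, 7.44% and 7.57%. Those with Ly6c2 and Ccl5 reached 10.9%, 9.53% and 12.8%. Clonotypes of 5 or more cells held 39.0%, 44.1% and 61.4% of the Gzmk-positive cells. The 154, 388 and 215 cells came from 88, 189 and 86 clonotypes. The largest clonotype made up 7.14% of the cells in iNKT KO HFD+HDCA, 6.96% in WT HFD+HDCA and 32.1% in WT HFD. Without it, 58.0%, 68.4% and 64.4% of the remaining Gzmk-positive cells were in clonotypes of 2 or more.

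Most cells of an expanded clonotype with a Gzmk-positive cell met the rule themselves. There were 28 such clonotypes with 145 cells in iNKT KO HFD+HDCA, 75 with 349 cells in WT HFD+HDCA and 34 with 235 cells in WT HFD. Of their cells, 64.8%, 78.5% and 69.4% met the rule. Another 20, 37 and 27 cells were CD8 T cells without a Gzmk UMI, of which 11, 30 and 24 held Ly6c2 and Ccl5. Zfp683, a transcription factor of tissue-resident T cells, kept 12, 9 and 25 of the cells outside the rule.

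Segment use of the α chain differed with genotype. TRAJ segments numbered 19 or higher, which the Jα18 deletion is known to make rare in this strain, formed 9.88% of the α chains of Gzmk-positive cells in iNKT KO HFD+HDCA (16 of 162). They formed 76.4% in WT HFD+HDCA (324 of 424) and 84.2% in WT HFD (246 of 292). CD8 T cells without Gzmk showed the same gap, with 6.84%, 72.0% and 76.7%. The α V segment TRAV9N-2 took 11.7% of α chains of Gzmk-positive iNKT KO cells, in 10 clonotypes, and 4.15% in the Gzmk-negative iNKT KO CD8 T cells. In the Gzmk-negative WT cells it took, with and without HDCA, 0.195% and 0.154%. In the β chain, TRBV13-3 took 6.88%, 5.88% and 35.4% of the chains, and per clonotype 5.32%, 6.03% and 10.8%, so the high WT HFD value came mostly from the largest clonotype printed above. TRBV13-1 took 10.0%, 13.5% and 1.77% of the chains and 6.38%, 7.04% and 4.30% of the clonotypes.

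The first comparison of expression asked how the Gzmk-positive cells of WT mice differed between the diet with HDCA and the diet without it. The counts of all Gzmk-positive cells of a library were summed and divided by their total. Of 7742 genes with at least 50 UMIs over both libraries, 73 were at least 2-fold higher in WT HFD+HDCA, which is 0.943%, and 119 were at least 2-fold lower, which is 1.54%. The 10 genes named by rule as lower in WT HFD+HDCA included the cytokines Il10 and Csf1 and the inhibitory receptors Havcr2 and Lag3, and 77.0% to 94.0% of their WT HFD UMIs lay in the largest WT HFD clonotype. Without the largest clonotype of each library 69 of 7259 genes were 2-fold higher and 35 were 2-fold lower.

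Pdcd1 stood at 94.6 CPM in WT HFD+HDCA and 406 CPM in WT HFD, a ratio of 0.233 (95% interval 0.201 to 0.270). Without the largest clonotypes it stood at 95.02 and 151 CPM, a ratio of 0.628. Lag3, an inhibitory receptor that binds MHC class II, stood at 29.4 and 162 CPM with a ratio of 0.182 (0.139 to 0.235), and at 0.632 without those clonotypes. Havcr2, which encodes the inhibitory receptor TIM-3, stood at 22.0 and 141 CPM with a ratio of 0.156 (0.115 to 0.208). Its ratio was 0.960 without the largest clonotypes, so the 2 libraries then hardly differed. Of the 14 inhibitory receptors measured, 2 were higher and 12 lower in WT HFD+HDCA with a median log2 ratio of -1.03, beside -0.00 over all 8886 genes measured. Without the largest clonotypes 6 were higher and 8 lower, with a median of -0.14.

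Effector molecules depended on the largest clonotypes to different degrees. Gzmb stood at 374 CPM in WT HFD+HDCA and 1170 CPM in WT HFD, a ratio of 0.320 that became 0.987 without the largest clonotypes. Ccl4, a chemokine that draws monocytes and T cells, stood at 374 and 1705 CPM, and at 356 and 279 CPM without them. Il10, which encodes an anti-inflammatory cytokine, had 3 UMIs in WT HFD+HDCA and 104 in WT HFD, of which 91.35% lay in the largest clonotype. Its ratio was 0.0170 (0.00344 to 0.0510), and it was still 0.0854 (0.00898 to 0.412) without the largest clonotypes. Csf1, a growth factor of macrophages, had 4 UMIs in WT HFD+HDCA and 46 in WT HFD, with 93.5% of the WT HFD UMIs in that clonotype. Its ratio of 0.0512 (0.0134 to 0.140) became 0.512 (0.0867 to 3.50). Gzma kept part of its difference, with 466 and 1635 CPM, a ratio of 0.285 (0.266 to 0.305) and of 0.476 without the largest clonotypes. Maf, a transcription factor that drives Il10, likewise had ratios of 0.162 (0.120 to 0.215) and 0.437. Gzmk itself had 697 and 999.9 CPM, and a ratio of 0.698 that became 1.003. Ccl5 had a ratio of 0.727 that became 1.11, and Tox a ratio of 0.616 that became 0.926.

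Genes of naive and memory cells leaned the other way, and this too depended on the clone. Of 18 measured, 15 were higher in WT HFD+HDCA with a median log2 ratio of 0.47, and 8 were higher without the largest clonotypes with a median of -0.05. Il7r, the receptor for the survival cytokine IL-7, stood at 324 CPM in WT HFD+HDCA and 224 CPM in WT HFD, and at 339 and 357 CPM without the largest clonotypes. Tcf7 stood at 225 and 188 CPM, and at 227 and 295 CPM without them. Among the cell cycle genes 1 was higher and 14 lower, with a median of -0.54 that became -0.36. Type I interferon response genes divided into 13 higher and 9 lower with a median of 0.08.

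Receptors of natural killer (NK) cells leaned towards WT HFD+HDCA with and without the largest clonotypes. Of 14 measured, 13 were higher in WT HFD+HDCA with a median log2 ratio of 0.66, and 10 of 13 were higher without them with a median of 0.88. CD8 T cells without Gzmk leaned the same way, at a summed 1169 CPM in WT HFD+HDCA and 970 CPM in WT HFD. Those of them with Ly6c2 and Ccl5 stood at 1510 and 1358 CPM, so the lean was not particular to the Gzmk-positive cells. Klrc2, an NKG2-family receptor, had 69 UMIs in 47 cells of WT HFD+HDCA and 16 UMIs in 12 cells of WT HFD. Its ratio of 2.54 (1.46 to 4.68) became 1.84 (1.02 to 3.54) without the largest clonotypes. In CD8 T cells without Gzmk its ratio was 1.34 (1.06 to 1.70). Markers of NK cells and ILC1 moved with this list: their summed level was 345 CPM in WT HFD+HDCA and 269 CPM in WT HFD. Ncr1, the NK receptor NKp46, had 44 UMIs in 5 cells and 4 UMIs in 1 cell. The part of NK transcripts from other cells in this difference was not tested.

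Fcgrt, the neonatal Fc receptor, had the highest ratio of the genes named by rule, 4.15 (2.59 to 6.998), with 141 UMIs in 72 cells of WT HFD+HDCA and 20 UMIs in 13 cells of WT HFD. Its ratio was 2.69 without the largest clonotypes and 1.11 in CD8 T cells without Gzmk. The other 9 named genes higher in WT HFD+HDCA, Adgrg5, Znrf3, Ercc6, Tgfbrap1, Klrc2, Acp6, H2-DMa, Mnt and Ggact, had ratios of 2.41 to 2.94. MHC class II genes were higher in all of 6 measured, at a summed 594 CPM in WT HFD+HDCA and 93.1 CPM in WT HFD. A single cell held 51.0% of the 819 Cd74 UMIs of WT HFD+HDCA, and the B cell list summed to 83.1 and 64.0 CPM. The remaining named genes lower in WT HFD+HDCA were Coch, Adgrg1, Neb, Ms4a4a and Gng3, with ratios of 0.0485 to 0.160 and 84.8% to 94.0% of their WT HFD UMIs in the largest clonotype. Perforin, Ifng and Tnf were closer: Prf1 had a ratio of 0.727, Ifng of 0.963 and Tnf of 1.03 (0.663 to 1.64). Cxcr6, a chemokine receptor that holds T cells in the liver, had a ratio of 0.569 and Eomes, a T-box factor of effector and memory cells, of 1.14.

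**Figure D2:**
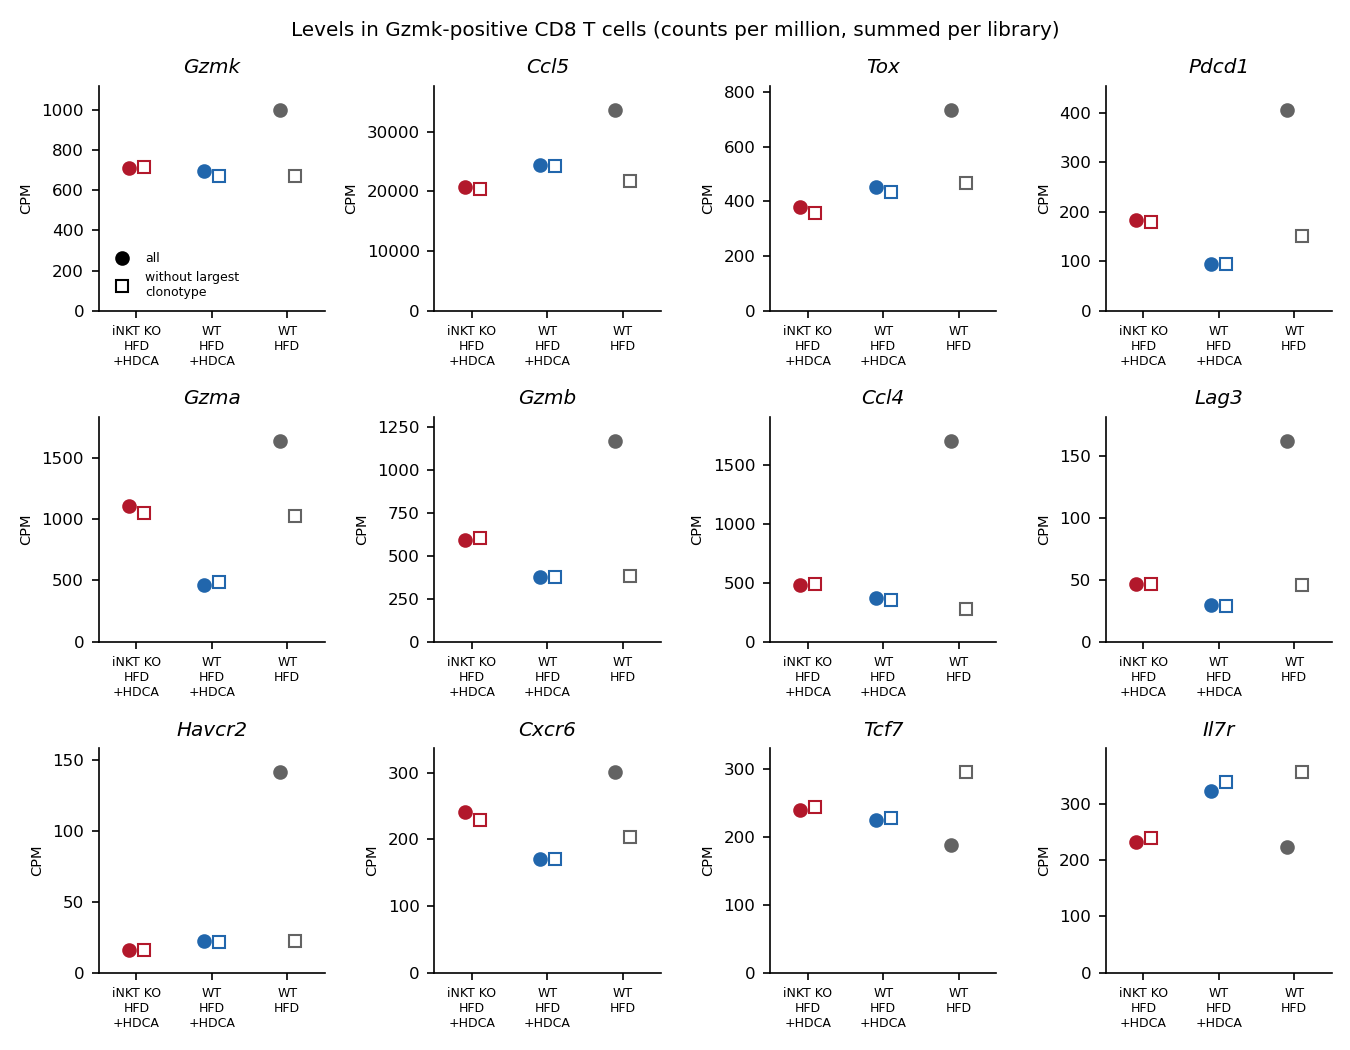
Level of 12 genes in CPM in the summed Gzmk-positive CD8 T cells of iNKT KO HFD+HDCA, WT HFD+HDCA and WT HFD; filled circles are all cells, open squares the cells without the largest clonotype of each library. In WT HFD the circle and the square lie far apart, for Pdcd1 at 406 and 151 CPM, whereas in the other libraries they lie close together.

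Receptors of bile acids and of GLP-1, which the title of the study names, were scarcely detected. Of the bile acid and GLP-1 receptor list, Gpbar1, Nr1h4 and Nr1i2 had no UMI in the Gzmk-positive cells of any library. Glp1r, the receptor of the gut hormone GLP-1, had 1 UMI in iNKT KO HFD+HDCA, 5 in WT HFD+HDCA and 36 in WT HFD, of which 88.9% lay in the largest WT HFD clonotype. S1pr2, which also binds conjugated bile acids, had 16, 32 and 16 UMIs. Slc15a2, a peptide transporter, had 1, 37 and 15 UMIs. The ratio between the WT libraries was 1.45 (0.778 to 2.85), and 6.15 (1.57 to 52.9) without the largest clonotypes. Of the 15 WT HFD UMIs 86.7% lay in the largest clonotype, so the second value rests on very few UMIs. The ratio was 8.67 in CD8 T cells without Gzmk and 6.60 in Cd79a-positive droplets without a TCR contig, so the other cells of these libraries differed in the same direction.

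The largest WT HFD clonotype was therefore described by itself. Its 69 Gzmk-positive cells held 38.0% of the UMIs of all 215. Against the other 146 cells of the library, 202 of 4548 genes were at least 2-fold higher and 256 at least 2-fold lower. These values compare 1 clone with the rest of 1 library and have no test. Coch, which encodes cochlin, stood at 285 CPM in the clone and 11.2 CPM in the other cells, Havcr2 at 335 and 22.5 CPM, and Ccl3 at 1383 and 91.0 CPM. Lag3 stood at 351 and 46.0 CPM, Tigit, a further inhibitory receptor, at 741 and 143 CPM, and Pdcd1 at 821 and 151 CPM. Gzmb stood at 2449 and 384 CPM and Il10 at 158 and 9.20 CPM. The reverse held for memory genes: Il7r stood at 6.66 and 357 CPM, Tcf7 at 13.3 and 295 CPM, and Klrk1, the activating receptor NKG2D, at 14.98 and 243 CPM. Among the inhibitory receptors Cd160 went the other way from Havcr2, Lag3, Tigit and Pdcd1, at 51.6 CPM in the clone and 108 CPM in the other cells. The myeloid marker Lyz2 stood at 331 CPM in the WT HFD cells, with 95.6% of its UMIs in 1 cell.

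The second comparison asked how the Gzmk-positive cells of iNKT KO mice differed from those of WT mice when both had received HDCA. Of 7487 genes with at least 50 UMIs over both libraries, 78 were at least 2-fold higher in iNKT KO HFD+HDCA, which is 1.04%, and 70 were at least 2-fold lower, which is 0.935%. Leaving out the largest clonotypes gave 77 and 70 genes of 7350. This comparison shares the WT HFD+HDCA library with the first one, so the values of both are not independent.

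Cell cycle genes were higher together in iNKT KO HFD+HDCA. Of 15 measured, 14 were higher and 1 lower, with a median log2 ratio of 0.96 and of 0.90 without the largest clonotypes, beside 0.02 over all 8754 genes. Mki67, a protein of dividing nuclei, stood at 170 CPM in iNKT KO HFD+HDCA and 61.5 CPM in WT HFD+HDCA, a ratio of 2.77 (2.23 to 3.43), and at 114 CPM in WT HFD. Top2a, a topoisomerase needed in mitosis, stood at 108 and 52.5 CPM with a ratio of 2.05 (1.60 to 2.63), and at 110 CPM in WT HFD. Pclaf, a factor bound to the replication clamp, had a ratio of 2.48 (1.94 to 3.18), with its UMIs in 14 and 15 cells. Cells with an Mki67 UMI were 15.6% of the Gzmk-positive cells in iNKT KO HFD+HDCA (24 of 154), 7.22% in WT HFD+HDCA (28 of 388) and 15.3% in WT HFD (33 of 215). Without the largest clonotypes these shares were 16.1%, 7.48% and 8.90%. In CD8 T cells without Gzmk they were 1.88%, 1.94% and 1.38%, with more UMIs per cell.

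Type I interferon response genes were lower together. Of 21 measured, 2 were higher and 19 lower in iNKT KO HFD+HDCA, with a median of -0.40. Isg15, a ubiquitin-like modifier, stood at 60.6 CPM in iNKT KO HFD+HDCA and 119 CPM in WT HFD+HDCA, a ratio of 0.509. Ifit1, which binds viral RNA, stood at 11.6 and 36.5 CPM with a ratio of 0.317 (0.163 to 0.568), and Usp18, which removes Isg15, had a ratio of 0.331 (0.145 to 0.668). In CD8 T cells without Gzmk the ratio of Ifit1 was 0.766 and that of Usp18 0.661. Summed over the list, the Gzmk-positive cells stood at 1939 CPM in iNKT KO HFD+HDCA and 2316 CPM in WT HFD+HDCA. CD8 T cells without Gzmk were lower in iNKT KO HFD+HDCA too, at 1457 and 1692 CPM. Those of them with Ly6c2 and Ccl5 stood at 1238 and 1619 CPM, so the difference was not particular to the Gzmk-positive cells. Immediate early genes, which respond to cell handling and to stimulation, had 1 member higher and 19 lower with a median of -0.20.

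NK-type receptors were lower in iNKT KO HFD+HDCA, with 2 of 15 higher, 13 lower and a median of -0.59. Their summed level was 1351 CPM in iNKT KO HFD+HDCA and 1529 CPM in WT HFD+HDCA. CD8 T cells without Gzmk were lower in iNKT KO HFD+HDCA too, at 909 and 1169 CPM. Those of them with Ly6c2 and Ccl5 stood at 1270 and 1510 CPM. Klrb1c, which encodes NK1.1, had 2 UMIs in 1 cell of iNKT KO HFD+HDCA and 58 UMIs in 17 cells of WT HFD+HDCA. Fcer1g and Tyrobp, adaptors of NK and myeloid receptors, had ratios of 0.241 (0.144 to 0.383) and 0.243 (0.149 to 0.378). Of their 20 and 22 iNKT KO UMIs, 85.0% and 72.7% lay in 1 cell. Among CD8 T cells without Gzmk the ratios were 0.580 for Klrb1c, 0.711 for Fcer1g and 0.567 for Tyrobp. All 6 markers of NK cells and ILC1 that were measured were lower, with summed levels of 197 CPM in iNKT KO HFD+HDCA and 345 CPM in WT HFD+HDCA. Ncr1, Klra8 and Klra4 were at 0 in iNKT KO HFD+HDCA. MHC class II genes, at 55.2 and 594 CPM, were lower in all of 6. The part of transcripts from other cells in these differences was not tested.

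Of the marker genes, Pdcd1 was higher in iNKT KO HFD+HDCA, at 183 and 94.6 CPM, a ratio of 1.94 (1.60 to 2.34). In CD8 T cells without Gzmk its ratio was 0.404. Gzmk had a ratio of 1.02 (0.940 to 1.11), Tox of 0.837 (0.748 to 0.936) and Ccl5 of 0.850. Gzma stood at 1106 and 466 CPM, a ratio of 2.37 (2.19 to 2.57), but 1 cell held 19.7% of its iNKT KO UMIs and the ratio of means over clonotypes was 1.19. Gzmb had a ratio of 1.59 (1.44 to 1.75) and of 1.14 over clonotypes. Prf1 had a ratio of 0.752 and Ifng, the cytokine interferon-γ, of 0.663 (0.534 to 0.818). Cxcr6 had a ratio of 1.41, Eomes of 0.802, Tcf7 of 1.06 (0.917 to 1.23) and Tnf of 1.44 (0.920 to 2.23). Slc15a2 had 1 and 37 UMIs, with a ratio of 0.0691 in CD8 T cells without Gzmk as well.

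The inhibitory receptors as a list did not follow Pdcd1. Of 14 measured, 6 were higher and 8 lower, with a median of -0.08, and granule genes had 7 higher and 6 lower with a median of 0.03. Among the genes named by rule, Lgals3, the galactose-binding galectin-3, had a ratio of 2.89 (2.51 to 3.32), with 398 CPM in iNKT KO HFD+HDCA and 138 CPM in WT HFD+HDCA. It was also higher in CD8 T cells without Gzmk, with a ratio of 2.02. Camk2b, a calmodulin-dependent kinase, had the highest of them, 3.45 (2.46 to 4.86), and 1 cell held 19.3% of its iNKT KO UMIs. Timeless, Il3ra, Il1rapl1, Car2, Ncapg2 and Tmem154 lay between 2.33 and 3.10. Among CD8 T cells without Gzmk the ratio was 3.68 for Il1rapl1, 1.64 for Il3ra, 1.60 for Ncapg2, 1.39 for Camk2b and 1.22 for Timeless. It was 0.542 for Car2 and 0.693 for Tmem154 there. Il1rapl1 also had a ratio of 2.81 in Cd79a-positive droplets without a TCR contig. Besides the NK and interferon genes given above, the named genes Tmem254, Cep43, Sh3bp5, Cysltr2 and Haao had ratios of 0.289 to 0.356. The ratios in CD8 T cells without Gzmk were 0.366 for Tmem254, 0.365 for Sh3bp5 and 0.297 for Cysltr2, and 1.14 for Cep43 and 1.498 for Haao.

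**Figure D3:**
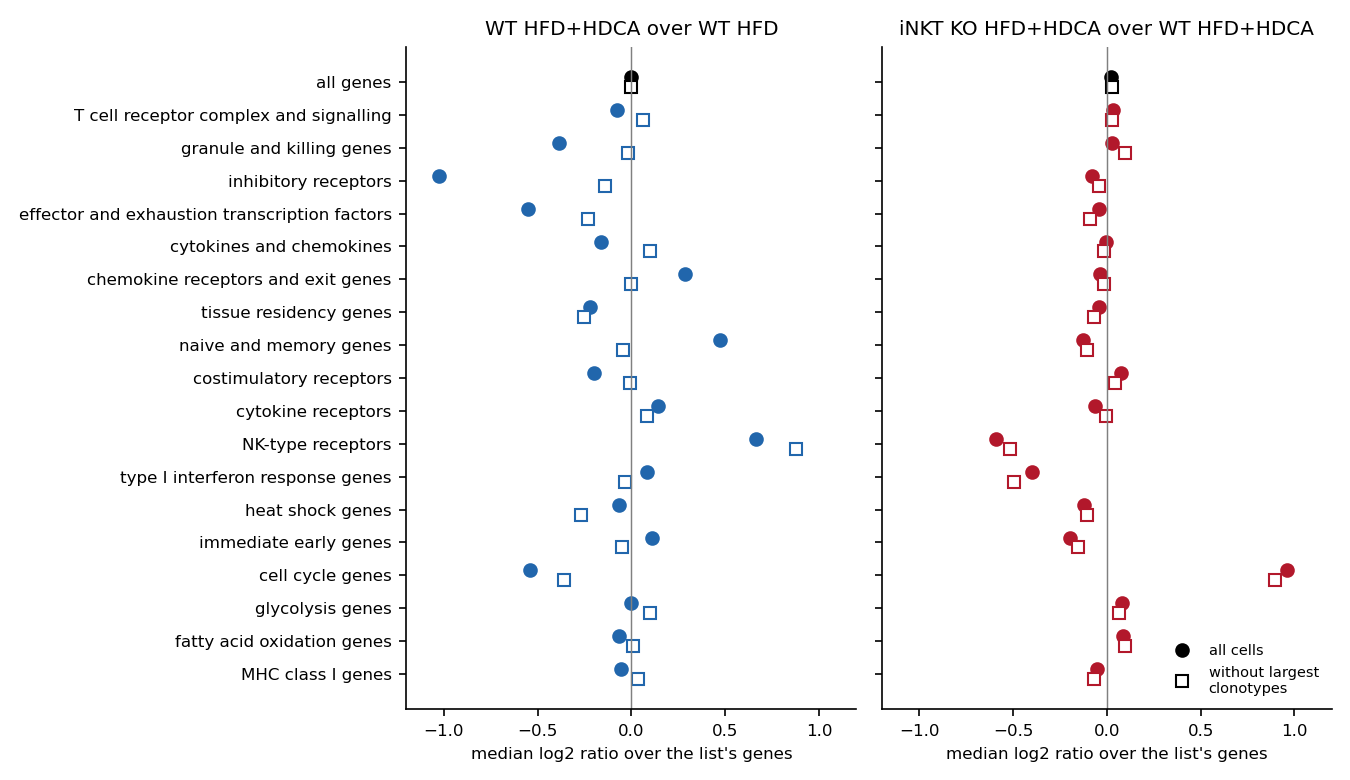
Median log2 ratio of each gene list in Gzmk-positive CD8 T cells, for WT HFD+HDCA over WT HFD and for iNKT KO HFD+HDCA over WT HFD+HDCA; filled circles are all cells and open squares the cells without the largest clonotype of each library. For HDCA in WT the inhibitory receptors move from -1.03 to -0.14 without the largest clonotypes, while for the knockout the cell cycle list stays near 0.96 and the interferon list near -0.40.

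Levels also varied between the clonotypes of a library. There were 31 clonotypes with at least 5 Gzmk-positive cells, 6 in iNKT KO HFD+HDCA, 17 in WT HFD+HDCA and 8 in WT HFD. Over all of them Gzmk, which every cell had to hold, ran between 267 and 1750 CPM with a median of 830. Ccl5 ran between 10565 and 52814 CPM with a median of 28610. Pdcd1 ran from 0 to 985 CPM with 5 clonotypes at 0, and Tox from 0 to 1696 CPM with 2 at 0. Gzma ran from 0 to 9924 CPM with 9 clonotypes at 0. The highest value belonged to the fourth-largest iNKT KO clonotype, with TRAV3-4 and TRBV13-3, whose 6 cells also had 985 CPM of Pdcd1 and 2411 CPM of Gzmb and no UMI of Tcf7, Il7r or Ly6c2.
iNKT KO HFD+HDCA, α chain, TRAV3-4 and TRAJ11: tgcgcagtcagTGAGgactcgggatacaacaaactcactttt
iNKT KO HFD+HDCA, β chain, TRBV13-3 and TRBJ2-1: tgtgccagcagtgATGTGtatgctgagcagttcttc
In WT HFD the clonotype of 9 Gzmk-positive cells with TRAV12-1 and TRBV3 had 932 CPM of Pdcd1 and 3351 CPM of Gzma, near the 821 and 2623 CPM of the largest one, but 227 CPM of Gzmb against 2449 CPM.
WT HFD, α chain, TRAV12-1 and TRAJ33: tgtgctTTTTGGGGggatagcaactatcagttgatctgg
WT HFD, β chain, TRBV3 and TRBJ2-3: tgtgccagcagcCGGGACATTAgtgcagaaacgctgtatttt

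Among the 20 genes with enough UMIs in these clonotypes, 190 pairs were compared by Spearman's rho across clonotypes, as a description. The clonotypes of a library share its depth, and many rest on 5 to 10 cells. Tox and Tigit had the highest rho, 0.764 over 31 clonotypes and 0.718 over the 17 of WT HFD+HDCA. Tox and Ly6c2, a surface protein of memory cells, had the lowest, -0.725 over all and -0.601 within WT HFD+HDCA. Gzmk and Ly6c2 had -0.664 and -0.689, and Gzmk and Eomes 0.647 and 0.853. Because the rule asked for Gzmk in every cell, nothing is read from the pairs with Gzmk. In the 5 clonotypes with Tox below 100 CPM, a limit set after the values were seen, Pdcd1 had no UMI and Ly6c2 stood between 1326 and 4090 CPM. Klrg1, an inhibitory receptor of short-lived effector cells, ran against Pdcd1 with -0.647 over all and -0.494 within WT HFD+HDCA. Gzma and Cxcr6 had 0.617 over all and 0.190 within WT HFD+HDCA, so that relation was not seen within the library.

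**Figure D4:**
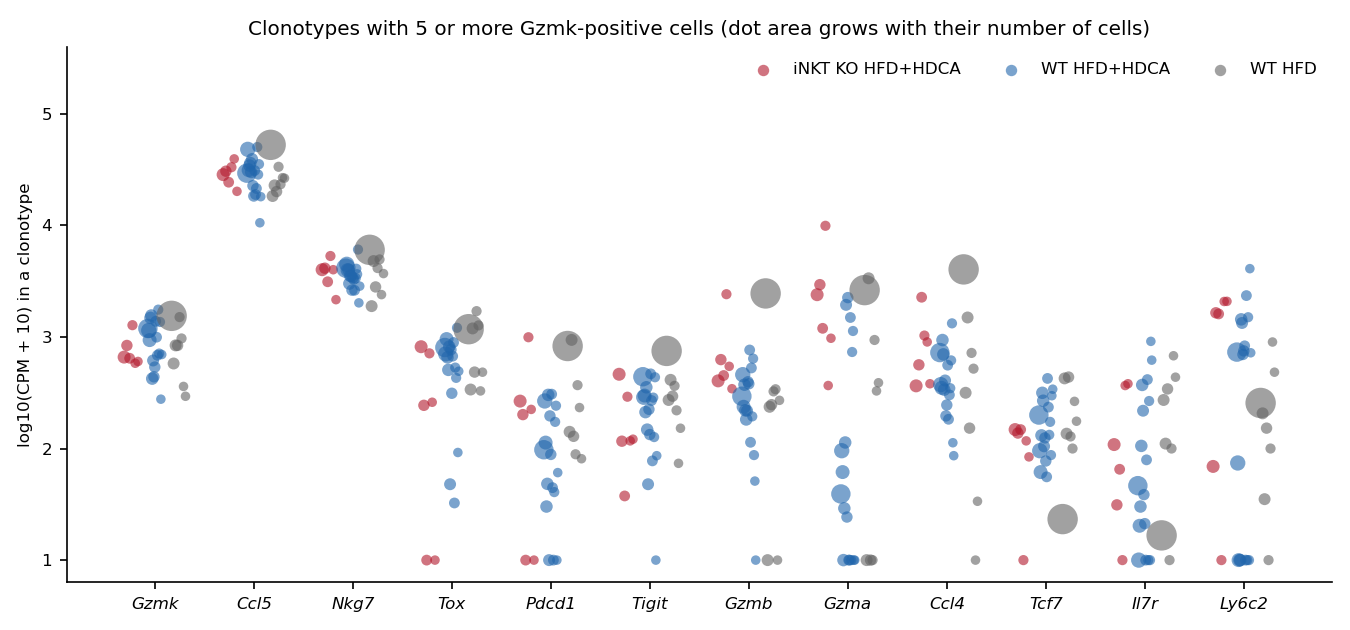
Level of marker genes in each of the 31 clonotypes with at least 5 Gzmk-positive cells, on a log10 axis of CPM plus 10, coloured by library (iNKT KO HFD+HDCA, WT HFD+HDCA, WT HFD); the area of a dot grows with the number of cells. Gzma spans 0 to 9924 CPM between clonotypes and Ccl5 10565 to 52814 CPM; Gzmk cannot be at 0, because the rule asked for it in every cell.

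Clone size, which the rule did not use, allowed a test with the 3 libraries as replicates. Gzmk-positive cells of clonotypes of 2 or more cells were summed in each library, 94 cells in iNKT KO HFD+HDCA, 274 in WT HFD+HDCA and 163 in WT HFD. They were compared with the sums of 60, 114 and 52 single cells by edgeR's quasi-likelihood test with the library as a block, 2-sided with Benjamini-Hochberg adjustment. Of 7474 genes, 50 rose in the expanded cells, which is 0.669%, and 116 fell, which is 1.55%. The 50 include Gzmk and Cd8a, whose counts chose the cells, and nothing is read from those 2 calls. At an unadjusted p under 0.05 there were 953 genes. Of the called genes, 49 of 50 and 115 of 116 had the same direction in all 3 libraries. The libraries differ in genotype and diet, so the test asks for what the expanded cells had in common across them, and mice were not its replicates. Expanded cells were the shallower ones, with median UMIs of 5591, 5705 and 6192, against 7072, 6683.5 and 6952 in single cells.

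Expanded cells fell most clearly in genes of naive and memory T cells. Of 17 such genes tested, 11 fell at an adjusted p under 0.05, none rose, and all 17 had a negative fold, with a median log2 fold change of -0.98 beside 0.00 over all genes. Ccr7, the receptor that guides cells to lymph nodes, stood at 13.3 CPM in expanded and 141 CPM in single cells of iNKT KO HFD+HDCA. It stood at 29.5 and 179 CPM in WT HFD+HDCA and at 6.86 and 155 CPM in WT HFD. Its log2 fold change was -3.21 ± 0.24 (SE, edgeR adjusted p = 1.4e-07, n = 3 libraries). Satb1, a chromatin organiser of T cells, stood at 40.01 and 101 CPM, 45.7 and 148 CPM, and 7.71 and 180 CPM in the same libraries, a log2 fold change of -2.27 ± 0.30 (edgeR adjusted p = 0.00015). Tcf7 fell by 1.25 ± 0.15 on the log2 scale (edgeR adjusted p = 5.9e-05), with 163 and 327 CPM, 176 and 326 CPM, and 116 and 393 CPM. Every library had the lower value in its expanded cells for these 3 genes.

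Dapl1, Usp28, Rgs10, Actn1, Sh3bp5, Metap1d and Cd2ap were further named genes that fell, with log2 fold changes of -3.05 to -1.83, and of them Sh3bp5 was lower in 2 of the 3 libraries. Ribosomal protein genes, a set chosen after the values were seen, had 50 of 83 tested among the genes that fell and a median of -0.39. They took 19.6%, 20.8% and 17.9% of the UMIs of expanded cells and 23.6%, 25.6% and 25.2% of those of single cells. Without them 50 genes rose and 66 fell of 7391.

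Among granule genes and inhibitory receptors, some rose in expanded cells and none fell. Gzma stood at 1677 CPM in expanded and 451 CPM in single cells of iNKT KO HFD+HDCA, 561 and 274 CPM in WT HFD+HDCA, and 2061 and 429 CPM in WT HFD. Its log2 fold change was 1.68 ± 0.16 (edgeR adjusted p = 2.9e-06), and it was called under all 9 alternatives. Of 13 granule genes tested 3 rose, Gzma, Gzmb and Nkg7, and none fell. Gzmb had a log2 fold change of 0.83 ± 0.18 (edgeR adjusted p = 0.014), and of 0.23 without the largest clonotypes (edgeR adjusted p = 0.39). Ccl5 rose by a log2 fold change of 0.81 ± 0.09 (edgeR adjusted p = 1.4e-05). Cish, a suppressor of cytokine and TCR signals, rose by 1.21 ± 0.19 (edgeR adjusted p = 0.0012), with 170 and 51.6 CPM, 88.6 and 52.8 CPM, and 147 and 53.4 CPM.

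Of 12 inhibitory receptors tested, 5 rose, Ctla4, Havcr2, Lag3, Pdcd1 and Tigit, and none fell, with a median of 0.71. Without the largest clonotypes Pdcd1 and Tigit were still called and the other 3 were not. Havcr2 had the highest fold of the genes named by rule, 1.78 ± 0.34 (edgeR adjusted p = 0.0049), but its level was 15.005 and 17.2 CPM in iNKT KO HFD+HDCA, 27.9 and 10.1 CPM in WT HFD+HDCA, and 182 and 26.7 CPM in WT HFD. Without the largest clonotypes its fold was 0.43 (edgeR adjusted p = 0.74). Pdcd1 stood at 218 and 143 CPM, 104 and 75.3 CPM, and 513 and 102 CPM, a log2 fold change of 1.09 ± 0.24 (edgeR adjusted p = 0.014). Its fold was 0.57 without the largest clonotypes (edgeR adjusted p = 0.016) and 0.49 without the WT HFD library (edgeR adjusted p = 0.17). Ctla4 had a fold of 0.76 ± 0.17 (edgeR adjusted p = 0.022) and of 0.31 without the largest clonotypes (edgeR adjusted p = 0.44). Lag3 had a fold of 1.24 ± 0.28 (edgeR adjusted p = 0.020) and of 0.43 without the largest clonotypes (edgeR adjusted p = 0.48). Tox rose by 0.88 ± 0.16 (edgeR adjusted p = 0.0032) and still by 0.63 without them (edgeR adjusted p = 0.00011). With DESeq2 the adjusted p was 0.13 for Tox, 0.45 for Pdcd1 and 0.41 for Gzmb.

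Transcription factors of effector and exhausted cells had 2 of 17 that rose, Maf and Tox. Maf had a fold of 1.59 ± 0.30 (edgeR adjusted p = 0.0044) and of 0.95 without the largest clonotypes (edgeR adjusted p = 0.041). Of 13 cell cycle genes 3 rose, Ccna2, Hmgb2 and Tyms, and all 13 had a positive fold, with a median of 0.76. None of 20 interferon genes was called by edgeR, with a median of -0.02. Prf1 had a fold of 0.48 ± 0.14 (edgeR adjusted p = 0.085), Ifng of 0.18 ± 0.16 (edgeR adjusted p = 0.72), Tnf of -0.13 ± 0.31 (edgeR adjusted p = 0.91), Cxcr6 of 0.47 ± 0.21 (edgeR adjusted p = 0.34) and Eomes of 0.03 ± 0.17 (edgeR adjusted p = 0.97). Slc15a2 and Glp1r did not pass the filter on low counts. Rgs16, Ccna2, H1f5, Phf11a and Zbtb38 completed the 10 named genes that rose, with folds of 1.11 to 1.57. A single cell held over 20% of the UMIs of 3 genes that rose, the myeloid marker Lyz2 and the histones H1f4 and H3c6. The same was true of 4 genes that fell, the MHC class II genes Cd74 and H2-Aa, the chemokine Cxcl10 and the transcription factor Myb.

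**Figure D5:**
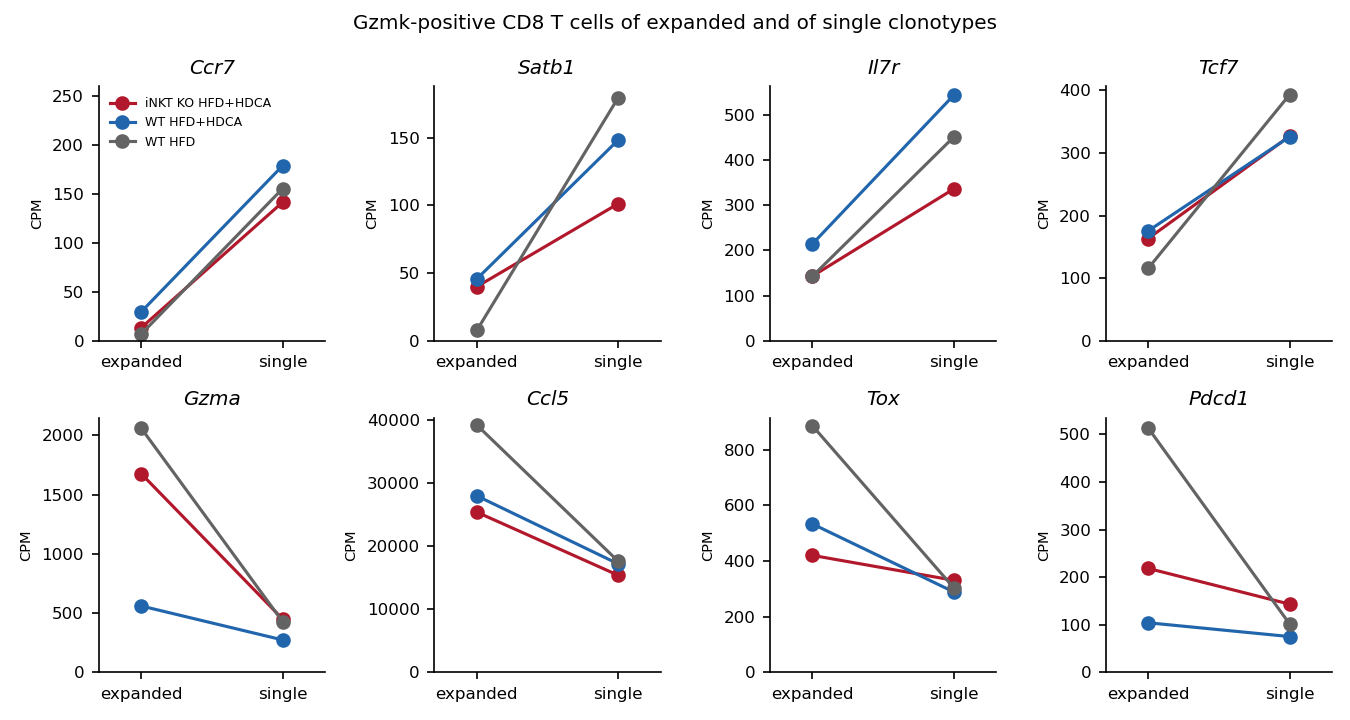
Level in CPM of 8 genes in Gzmk-positive CD8 T cells of expanded clonotypes (left) and single clonotypes (right); each line joins the sums of 1 library, iNKT KO HFD+HDCA, WT HFD+HDCA or WT HFD. Ccr7, Satb1, Il7r and Tcf7 are lower in the expanded cells of all 3 libraries, and Gzma, Ccl5, Tox and Pdcd1 are higher.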

How the data were processed

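The deposited RNA files held counts of UMIs per gene and barcode, made with Cell Ranger 8.0.1 per the file headers. In the deposited TCR files, each assembled contig came with its UMI and read counts. The submitters' processing notes name both mm10 and GRCm39, so no coordinates are given; chromosomes are those of the RefSeq genes of GRCm38.p6. Cells were left out if they had fewer than 200 genes, 10% or more mitochondrial UMIs or a Scrublet doublet call (scanpy 1.11.5). Counts of Gzmk-positive cells were summed per library and divided by their total (CPM). Shares have exact Clopper-Pearson and levels exact conditional 95% intervals, which cover counting error only (scipy 1.17.1). Expanded and single cells were compared with edgeR 4.0.16 (library block, filterByExpr, TCR and immunoglobulin segments left out, adjusted p under 0.05), with DESeq2 1.42.0 as an alternative. On simulated data with 7434 genes, edgeR recovered 48 of 100 genes changed 2-fold and 100 of 100 changed 4-fold, with 6 false calls. These counts were independent, with the same dispersion for all genes and without clones or library effects, and only well-counted genes were changed. The real sums differ in this, so the figures do not give the error rates of the test on them.

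The cells, gene lists and tests were chosen with earlier results of these data known. Between libraries, the 10 highest and 10 lowest ratios of at least 1.5 were named among genes with at least 50 UMIs. For expanded against single cells the 10 highest and 10 lowest folds of called genes were named. Genes with over 20% of their UMIs in 1 cell on the higher side, gene models, TCR and immunoglobulin segments, mitochondrial, ribosomal, sex-linked and rule genes were not named. A fixed set of 14 genes and examples of each list were added. Lists counted genes with at least 20 UMIs over both libraries.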

Additional observations from a re-analysis of the deposited data

How the results depend on the processing

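With Gzmk counted from 2 UMIs, the shares of Gzmk-positive cells among CD8 T cells were 13.5% in iNKT KO HFD+HDCA, 23.9% in WT HFD+HDCA and 22.99% in WT HFD. With cells thinned to 2000 UMIs they were 13.2%, 20.9% and 21.3%, and with each clonotype counted once 11.8%, 17.7% and 13.6%. In WT HFD the share was 30.4% with contigs of at least 3 UMIs and 20.1% without the largest clonotype, an alternative chosen after seeing the data, and its expansion was 64.4% without that clonotype. The iNKT KO share was the lowest in each of these settings computed for all 3 libraries. Without the largest clonotypes its interval overlapped that of WT HFD.

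Genes 2-fold higher in WT HFD+HDCA numbered 238 at a minimum of 20 UMIs, 27 at 100 UMIs, 33 in thinned cells and 150 as means over clonotypes. Genes 2-fold lower numbered 270 and 65 at those minima, 35 without the largest clonotypes and 56 in thinned cells. For iNKT KO HFD+HDCA the higher genes numbered 216 and 25 at those minima and 21 in thinned cells, and the lower genes 235, 28, 34 and, over clonotypes, 152. Without segments, gene models, mitochondrial, ribosomal, sex-linked and rule genes, an alternative chosen after seeing the data, there were 50 higher and 99 lower genes for HDCA and 65 and 58 for the knockout.

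Genes that rose in expanded cells numbered 20 with DESeq2, 148 with no filter on low counts, 6 with no library block and 84 without the largest clonotypes. Genes that fell numbered 68, 175 and 31 in the first 3 of these. Leaving out 1 library at a time gave 56 to 132 genes that rose, with 132 without iNKT KO HFD+HDCA and 77 without WT HFD+HDCA, and 76 to 185 that fell, with 185 and 76 without those libraries. Of the 166 called genes 142 were called again without the largest clonotypes.

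Among gene ratios whose counting interval excluded 1, and list medians whose interval excluded 0, directions reversed for HDCA without the largest clonotypes for Gzmk (log2 ratio 0.0041), Ccl5 (0.15) and Tcf7 (-0.38), for the naive and memory list (median -0.046) and for the immediate early list (-0.048). As means over clonotypes they reversed for Ms4a4a (0.10), Gzmb (0.12), Cxcr6 (0.10), Tcf7 (-0.27) and the naive and memory list (-0.053), and for the knockout for Tox (0.038) and Eomes (0.038). In these 2 settings, 2 HDCA ratios whose interval held 1 also changed side: Tnf, at 0.768 without the largest clonotypes and 0.817 over clonotypes, and Eomes, at 0.848 over clonotypes. The cause was not tested. Of 466 alternative gene ratios between libraries 371 moved within their counting interval and 86 beyond it. Of 269 alternative folds of expanded against single cells 60 lost the call and 2 gained it. No paired analysis was possible because each group had 1 library; the library block was used for expanded against single cells. For Tnf a difference inside its interval of 0.663 to 1.64 was not detectable at this depth.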
